A study of Homo sapiens with 6 samples.

Results

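The genes described here are 51 interferon-stimulated, nucleic acid sensor and interferon regulatory genes, taken by symbol from a fixed list among the 47470 genes of the count tables. The list names 1 gene under both its older and its current symbol (DDX58, now RIGI), which was counted once. All 51 were listed in the tables, 49 had at least 1 count in some library, and 38 passed the filter on low counts and were tested. HEK293T cells (human embryonic kidney, with the SV40 large T antigen) that had been kept for 1 day with valproic acid (VPA) at 1 mM were compared with untreated ones. VPA inhibits histone deacetylases. Strand-specific mRNA libraries were sequenced, 3 per condition and 6 in all. The labels give no further treatment, transgene or genotype for either condition, and no interferon, virus or RNA ligand was added according to them. A single cell line was used. According to the methods the RNA-seq was done in triplicate, without saying whether the triplicates were separate cultures, so the p-values measure the spread between these libraries, which may be technical.

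Interferons are secreted proteins by which a cell that senses foreign nucleic acid warns itself and its neighbours. RNA in the cytosol is sensed by the helicases RIG-I (gene RIGI) and MDA5 (IFIH1), which signal through MAVS on mitochondria, and DNA is sensed by cGAS, which signals through STING, and both routes activate IRF3. Type I interferon then binds IFNAR1 and IFNAR2 and activates a complex that holds STAT2 and IRF9 and binds the interferon-stimulated response element in the promoters of many genes with antiviral roles. HEK293 cells are widely used for the study of these routes because their own cGAS and STING are low or absent.

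Counts on genes lay between 18622267 and 18828495 per library. Markers of the line, among them VIM, KRT8, KRT18, PAX2, LHX1, EYA1 and WT1, had counts in every library. Of 10 markers of blood cells, a source of interferon responses in tissue, 8 had a count in some library, and their summed counts were 21 to 35 in the untreated and 42 to 55 in the VPA libraries. MS4A1 and CLEC4C, which define B cells and plasmacytoid dendritic cells, were at 0 in all libraries, and PTPRC was at 0 in the untreated libraries and at 3 to 5 counts in the VPA libraries. The part of such cells or of these transcripts in the results was not tested. In bulk RNA, a change in the number of cells that express a gene and a change in RNA per cell cannot be told apart.

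After VPA 22 of the 51 genes were higher and 6 were lower at an adjusted p under 0.05 (edgeR's quasi-likelihood test with Benjamini-Hochberg adjustment over 15298 genes), 10 tested genes did not pass, and 13 were not tested. Of the 38 tested members 57.9% were higher and 15.8% lower, where for all genes with a test the shares were 32.9% and 30.0%. With a log2 fold change of at least 1 as well, 12 members were up-regulated (31.6% of those tested), where 12.0% of all tested genes were. Down-regulated was 1 member, where 0.503% of all tested genes were. The up-regulated members were UBE2L6, OAS3, SAMD9, IFIT1, IFITM1, TRIM5, IFIH1, OASL, IFI6, IFI44L, DHX58 and BST2, and the down-regulated member was IFI35. In normalized counts all 3 VPA libraries were above all 3 untreated ones in 22 of the tested members and below them in 6, where the shares over all tested genes were 34.8% and 31.0%. The median log2 fold change of the tested members was 0.34, beside 0.0058 over all tested genes. When the libraries were scaled by their totals instead, the medians were 0.47 and 0.14, so that all genes shifted together, and 28 members were higher and 3 lower. RIGI, IRF1, IFNAR1, USP18, IFI27 and MAVS were then among the higher ones, and MAVS and HERC5 changed sign. The filter itself bears on these counts, those of libraries that did not overlap among them, and on the median. It passed 32 members through the counts of both groups, 5 through the VPA libraries alone (DHX58, OASL, BST2, IFI44L and ISG20) and IFI35 through the untreated libraries alone. Of the 32 members that passed in both groups, 18 were higher, 8 of them up-regulated, and 5 were lower. For the 33 members with at least 10 counts in every library the median was 0.31, beside 0.0021 over all genes so filtered. Normalized counts here are counts after TMM normalization, scaled to the mean library.

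**Figure D1:**
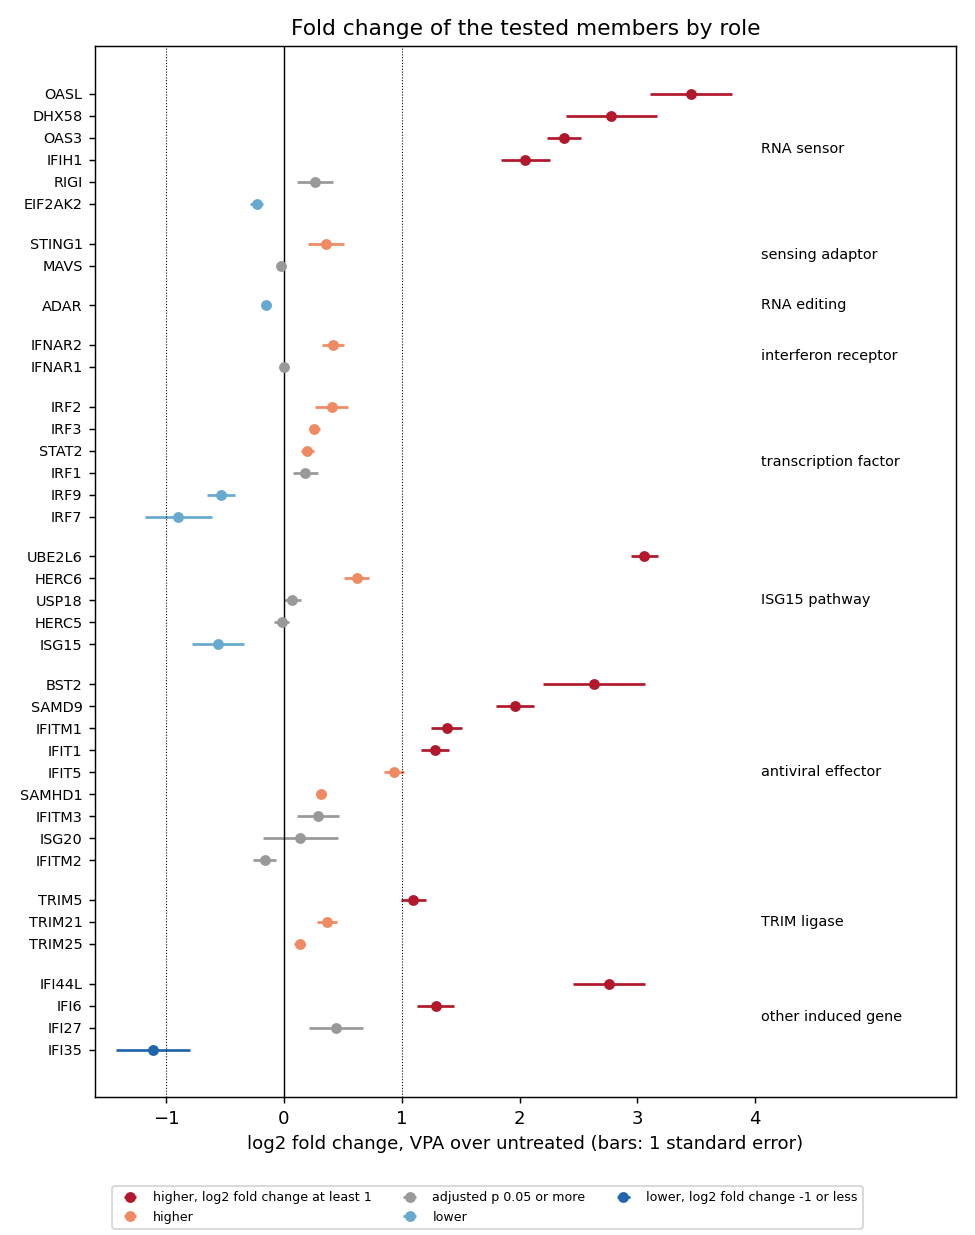
The log2 fold change (x axis, VPA over untreated) of the 38 tested members, grouped by role, with bars of 1 standard error and colours for the call. OASL at 3.45 and UBE2L6 at 3.06 stand far from IFI35 at -1.11, IRF7 at -0.90 and ISG15 at -0.56.

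The sequence by which interferon reaches many of these genes was looked for in their promoters. The RefSeq promoter table (GRCh38.p14, 250 bases before to 50 after the gene start) held 37 of the 51 members. The core of the response element was searched as GAAA, any 2 bases and GAAA again, on both strands, so that TTTC with the same spacing also counted, and overlapping matches were kept. It was present in 20 of the 37 member promoters, 54.1%, and in 996 of all 27305 promoters, 3.65%. The genes were listed for their known response to interferon, so this share describes the list. Of the 12 up-regulated members 10 had a promoter in the table and 9 of these held the core, all but UBE2L6. It was also present in 2 of the 6 members with a promoter that were higher without being up-regulated (IFIT5 and TRIM21), in 3 of the 8 not tested (IFI44, IFIT3 and MX1), in 2 of the 5 lower members with a promoter (EIF2AK2 and ISG15) and in 4 of the 8 that did not pass the test (HERC5, IFI27, IFITM3 and ISG20). DHX58 and OASL had no entry in the table. The gamma-activated site, TTC and GAA with 3 bases between, was in 7 member promoters and in 2152 of all, 7.88%.

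For the 9 up-regulated genes with a match, and for 3 genes with a match that were not up-regulated, the match nearest to the gene start with room around it is shown in a window of 30 bases that ends before the start, 5′ to 3′ on the strand of the gene, with the core in capitals.
OAS3 (chr12:112938321-112938350, plus): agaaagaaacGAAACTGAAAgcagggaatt
IFIH1 (chr2:162318686-162318715, minus): gaagagaatcGAAACAGAAAccaaagtcag
IFIT1 (chr10:89392510-89392539, plus): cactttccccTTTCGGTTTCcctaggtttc
IFITM1 (chr11:313990-314019, plus): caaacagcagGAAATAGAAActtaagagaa
BST2 (chr19:17405735-17405764, minus): ctgggaaactGAAACTGAAAacctaattaa
SAMD9 (chr7:93118096-93118125, minus): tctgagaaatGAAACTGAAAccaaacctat
TRIM5 (chr11:5685082-5685111, minus): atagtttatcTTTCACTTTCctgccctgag
IFI6 (chr1:27672266-27672295, minus): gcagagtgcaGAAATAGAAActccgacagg
IFI44L (chr1:78620365-78620394, plus): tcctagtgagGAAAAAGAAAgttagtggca
ISG15, lower (chr1:1013380-1013409, plus): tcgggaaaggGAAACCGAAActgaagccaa
IFITM3, not passed (chr11:320876-320905, minus): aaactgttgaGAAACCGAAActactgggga
HERC5, not passed (chr4:88457035-88457064, plus): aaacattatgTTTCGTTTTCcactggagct
Core letters were shared across calls. GAAACTGAAA stood in OAS3, BST2 and SAMD9 and also in ISG20, which did not pass. GAAACCGAAA stood in ISG15 and IFITM3. Its reverse complement, TTTCGGTTTC, stood in the up-regulated IFIT1, in IFIT5, which was higher, and in IFI27, which did not pass. In IFI44L the window shown was repeated base for base at another match, with core starts 164 and 73 bases before the gene start. A match says that these letters are present and not that a factor bound there.

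**Figure D2:**
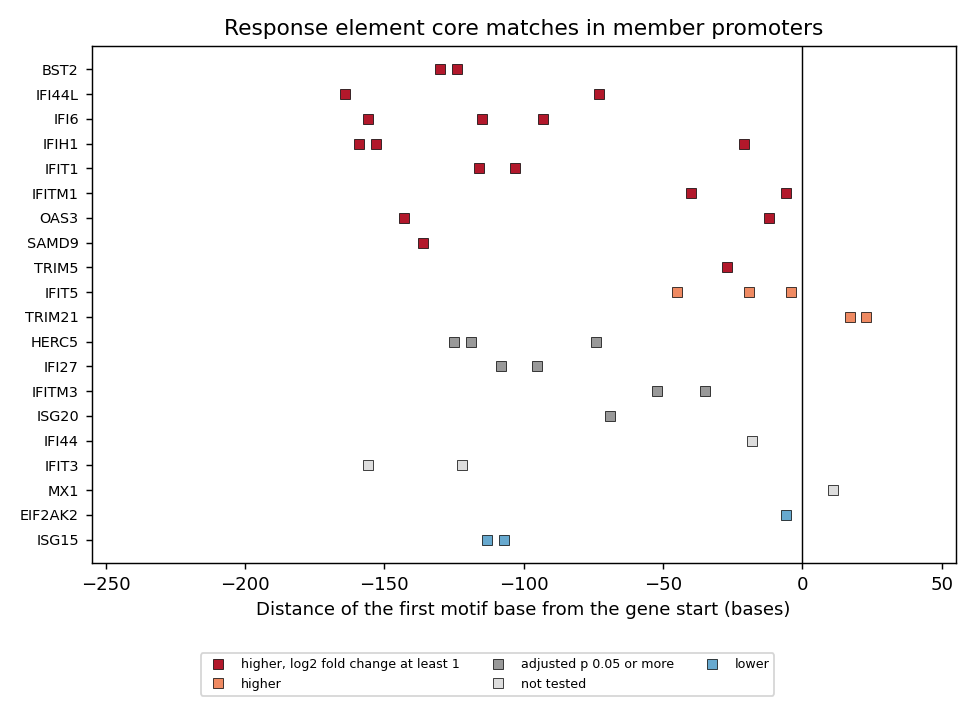
Position of each response element core match (x axis, bases from the gene start, negative before it) in the 20 member promoters that held one, coloured by the call of the gene. Matches lay between 164 bases before and 23 bases after the start, in up-regulated as well as in lower and unpassed genes.

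Among the RNA sensors, 4 of 8 genes were up-regulated, 1 was lower, 1 did not pass and 2 were not tested. Of all tested genes 12.0% were up-regulated. DHX58 and OASL passed the filter through the VPA libraries alone, so the count of 4 is no support. OAS3, which makes the 2-5A that activates RNase L on double-stranded RNA, had 29.0, 24.1 and 34.6 normalized counts in the untreated and 157, 145 and 155 in the VPA libraries. All its VPA libraries were far above the highest untreated one. Its log2 fold change was 2.38 ± 0.15 (SE, adjusted p = 6.22e-12, edgeR). IFIH1, the MDA5 sensor of long double-stranded RNA, had 17.6, 12.6 and 18.9 against 72.8, 57.8 and 73.7, a log2 change of 2.05 ± 0.21 (SE, adjusted p = 1.93e-08, edgeR). DHX58, or LGP2, a helicase of the same family that lacks the signalling domains, had 5.18, 2.09 and 3.15 against 30.7, 19.3 and 23.9 normalized counts. The log2 fold change was 2.78 ± 0.38 (SE, adjusted p = 1.89e-06, edgeR), on 87 counts over the 6 libraries. OASL, which has lost the enzyme activity of the family and binds RIG-I, had 1.04, 5.23 and 4.20 against 33.5, 39.5 and 45. For OASL the log2 fold change was 3.45 ± 0.35 (SE, adjusted p = 1.93e-08, edgeR), and it lay between 3.02 and 3.85 with each library left out. With a larger prior count of 2 it was 2.92, below that of UBE2L6. In these 4 genes the groups did not overlap, which goes with their being called. Over all tested genes all VPA libraries were above all untreated ones in 34.8%.

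RIGI, the sensor of short RNA with a triphosphate end, did not follow them past the test. It had 54.9, 48.2 and 46.2 normalized counts untreated and 56.5, 56.8 and 66.1 after VPA, a log2 change of 0.27 ± 0.16 (SE, adjusted p = 0.143, edgeR). Its groups did not overlap, by a small margin. EIF2AK2, the kinase PKR that stops translation on double-stranded RNA, was lower, at 1027, 1095 and 1009 against 906, 913 and 848. Its log2 fold change was -0.23 ± 0.053 (SE, adjusted p = 0.000676, edgeR), and it was -0.10 and past no threshold when the libraries were scaled by their totals (adjusted p = 0.109). EIF2AK2 overlaps GPATCH11, which had 3884 counts and a log2 fold change of -0.01, and the part of the overlap in the count was not tested. OAS1 had 1 count in 2 VPA libraries and OAS2 1 count in 1, and both were at 0 in the untreated libraries, at which depth a change was not detectable. ADAR, the editor that marks cellular double-stranded RNA as self, had the most counts of the members, 10359, 10916 and 10475 normalized counts untreated and 9530, 9821 and 9188 after VPA. It was lower by a log2 change of -0.15 ± 0.041 (SE, adjusted p = 0.00268, edgeR), which was -0.02 with library totals (adjusted p = 0.642).

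The DNA sensors were close to silent. CGAS had 1 count over the untreated and 5 over the VPA libraries, and IFI16 had 1 and 4. STING1, the adaptor below cGAS, was counted at 63.2, 49.2 and 55.6 against 74.7, 61.6 and 79.5 normalized counts. Its untreated and VPA libraries overlapped, and its log2 change of 0.36 ± 0.15 (SE) passed narrowly (adjusted p = 0.0452, edgeR). It did not pass with DESeq2 (adjusted p = 0.25), with DESeq2 size factors (0.0518) or without the filter on low counts (0.0793), nor without untreated replicate 2 (0.186), untreated replicate 3 (0.09), VPA replicate 1 (0.102) or VPA replicate 3 (0.169). MAVS, the adaptor of the RNA sensors, had 3011, 3003 and 2749 against 2953, 2851 and 2800. The groups overlapped, and the log2 fold change was -0.03 ± 0.044 (SE, adjusted p = 0.621, edgeR).

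**Figure D3:**
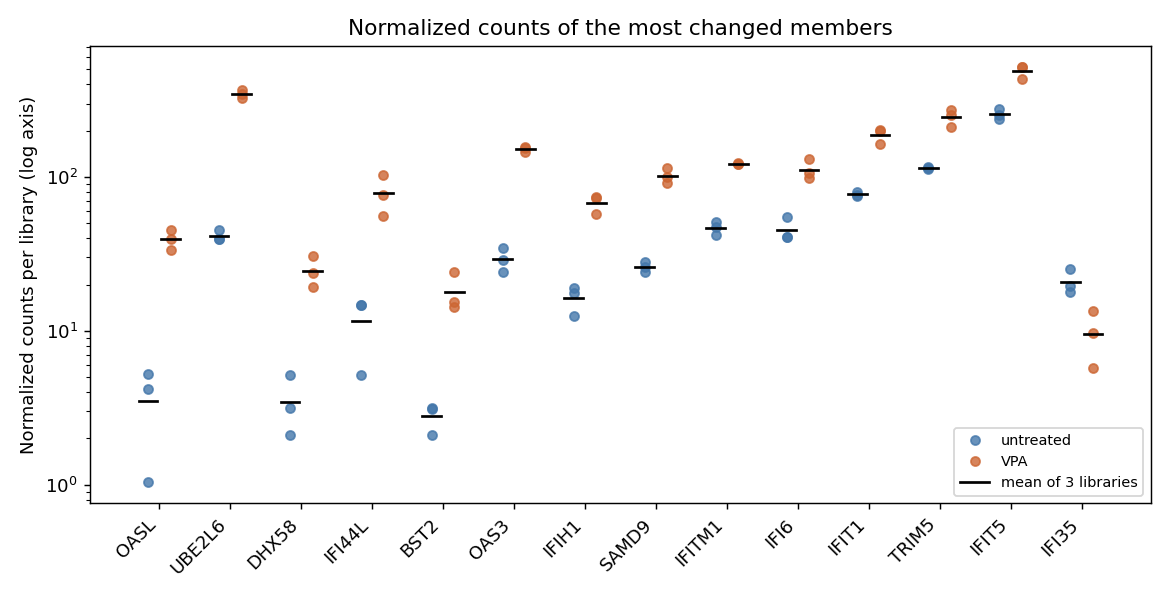
Normalized counts (y axis, log scale) of the 12 up-regulated members, IFIT5 and the down-regulated IFI35 in each of the 3 untreated and 3 VPA libraries, with black lines for the means. These 14 genes were picked by their results, so it is no further result that their groups do not overlap. Over all tested genes all VPA libraries were above in 34.8% and below in 31.0%. DHX58, OASL, BST2 and IFI44L passed the filter through the VPA libraries alone and IFI35 through the untreated ones alone. The untreated libraries of OASL, DHX58 and BST2 hold fewer than 6 normalized counts each.

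Of the receptor chains, IFNAR1 had 1301 ± 28.8 and 1302 ± 12.1 normalized counts (mean ± SD over 3 libraries each), and the log2 change was 0.0016 ± 0.045 (SE, adjusted p = 0.978, edgeR). IFNAR2, the chain that binds interferon with high affinity, rose from 196, 200 and 197 to 231, 299 and 263. The log2 fold change was 0.42 ± 0.094 (SE, adjusted p = 0.000578, edgeR). Of the 6 transcription factors 3 were higher, 2 lower and 1 did not pass, and none had a log2 fold change of 1 in size. Over all tested genes 32.9% were higher and 30.0% lower, and the counts are no result about these factors. STAT2 rose from 653 ± 18.9 to 750 ± 11.4 (log2 fold change 0.20, adjusted p = 0.00297, edgeR) and IRF3, the factor that the sensors activate, from 1117 ± 43.3 to 1337 ± 22.1 (log2 fold change 0.26, adjusted p = 7.03e-05, edgeR). IRF3 shares its locus with BCL2L12, which was lower by -0.21. IRF2, which can repress interferon-induced genes, rose from 67.2 ± 9.46 to 88.9 ± 8.01 (log2 fold change 0.40, adjusted p = 0.0159, edgeR), and was not called with DESeq2 (0.137), without untreated replicate 1 (0.0975) or without VPA replicate 2 (0.0725). IRF1, an activator, had 151 ± 18.2 and 171 ± 17.8 with groups that overlapped (adjusted p = 0.15, edgeR).

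The lower factors were IRF9 and IRF7. IRF9, the DNA-binding partner of STAT2, had 177, 133 and 161 normalized counts untreated and 114, 113 and 98.6 after VPA. Every VPA library was below every untreated one, with a log2 change of -0.53 ± 0.12 (SE, adjusted p = 0.000515, edgeR). IRF7, which amplifies interferon production and is itself induced by interferon, had 28.0, 17.8 and 24.1 against 16.3, 10.6 and 10.5. Its log2 fold change was -0.90 ± 0.28 (SE, adjusted p = 0.00914, edgeR) on 106 counts in all, with adjusted p-values of 0.0743 with DESeq2 and 0.05 without untreated replicate 1.

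The genes of the ISG15 pathway, by which the ubiquitin-like protein ISG15 is attached to other proteins, moved in different directions. UBE2L6, the E2 enzyme that carries ISG15, had 39.3, 39.8 and 45.1 normalized counts in the untreated and 324, 367 and 347 in the VPA libraries. This is an 8.35-fold difference of the means, a log2 change of 3.06 ± 0.11 (SE), and the smallest p among the members (adjusted p = 1.91e-15, edgeR). Leaving out single libraries gave 3.01 to 3.12. ISG15 itself was lower, at 34.2, 34.5 and 30.4 against 25.9, 17.3 and 23.9. The groups did not overlap, but the call (log2 fold change -0.56, standard error 0.22, adjusted p = 0.0297, edgeR) was lost with DESeq2 (0.165), upper quartile scaling (0.0549) and library totals (0.0959). It was also lost without untreated replicate 1 (0.065), untreated replicate 2 (0.0752) or VPA replicate 2 (0.144). HERC6 rose from 128 ± 8.34 to 197 ± 21.5 (log2 fold change 0.62, adjusted p = 2.76e-05, edgeR). HERC5, the main ISG15 ligase in human cells, had 515 ± 16 and 509 ± 33.1, a log2 fold change of -0.02 (adjusted p = 0.83, edgeR). USP18, which removes ISG15 and blunts receptor signalling, had 384 ± 33.7 and 403 ± 14.5, a log2 change of 0.07 ± 0.073 (SE, adjusted p = 0.414, edgeR).

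Of the 15 antiviral effectors 4 were up-regulated, 2 more were higher, 3 did not pass and 6 were not tested. Of the 4, BST2 passed the filter through the VPA libraries alone, and 12.0% of all tested genes were up-regulated. IFIT1, which binds viral RNA that lacks the methyl mark of the host cap, had 76.6, 79.6 and 75.6 normalized counts untreated and 164, 202 and 198 after VPA. Its log2 fold change was 1.28 ± 0.12 (SE, adjusted p = 4.40e-09, edgeR). IFIT5, a relative that binds RNA with a triphosphate end, had 238, 252 and 276 against 431, 520 and 514, a log2 change of 0.94 ± 0.083 (SE, adjusted p = 2.83e-09, edgeR). Both overlap the span of LIPA, as do the little counted IFIT2 and IFIT3. LIPA had 12253 counts over the 6 libraries and rose as well, by a log2 fold change of 0.56. The strand setting of the counting is not given in the sources used here, and the part of LIPA reads in these counts was not tested. IFIT2 had 3 counts untreated and 7 after VPA, and IFIT3 had 22 and 37, both under the filter.

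IFITM1, a membrane protein that hinders virus fusion at the cell surface, had 50.7, 41.9 and 47.2 normalized counts untreated and 123, 121 and 122 after VPA. The VPA libraries were close together, and the log2 fold change was 1.38 ± 0.13 (SE, adjusted p = 9.02e-09, edgeR). IFITM2 had 227 ± 22.5 and 203 ± 16.9 (log2 fold change -0.16, adjusted p = 0.137, edgeR) and IFITM3, the family member of endosomes, 35.8 ± 4.49 and 43.8 ± 4.6 (log2 fold change 0.29, adjusted p = 0.171, edgeR). The IFITM genes are close copies of each other, and reads without a unique place were set aside in the counting, so their counts are uncertain for that reason.

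BST2, or tetherin, which holds budding virus on the cell, had 3.11, 3.14 and 2.10 against 24.0, 15.4 and 14.4 normalized counts. Its log2 fold change was 2.63 ± 0.43 (SE, adjusted p = 1.68e-05, edgeR), on 64 counts over the 6 libraries. SAMD9, which restricts poxviruses, had 28.0, 26.2 and 24.1 against 99.7, 115 and 91.9, a log2 change of 1.96 ± 0.16 (SE, adjusted p = 1.08e-09, edgeR). SAMHD1, which depletes the nucleotides that reverse transcription needs, was well counted without induction and rose from 2026, 2137 and 2025 to 2518, 2621 and 2570. The difference was larger than the spread between libraries, with a log2 change of 0.32 ± 0.042 (SE, adjusted p = 1.21e-06, edgeR). ISG20, an RNA exonuclease, had 12.2 ± 2.91 and 13.4 ± 2.92 (adjusted p = 0.724, edgeR).

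Some of the members often used to score an interferon response had few or no counts. RSAD2, the gene of viperin, and XAF1 were at 0 in all 6 libraries. At this depth a count of 0 allows up to 3 counts, between 0.159 and 0.161 CPM (counts scaled to a fixed total on genes). That bound covers depth alone. RSAD2 overlaps CMPK2 in RefSeq, and DDX3X of the other pathway genes was also at 0 in all 6 libraries. Whether a 0 came from the annotation or the counting was not tested. MX1 was at 0 in the untreated libraries and had 2, 1 and 2 counts after VPA, and MX2 had 0, 2 and 1 after VPA. IFI44 was at 0 in the untreated libraries and had 3, 1 and 7 counts after VPA. Set against 3 counts over the untreated group that is 3.365-fold, with the VPA counts taken as exact and most of them in 1 library. Without the filter on low counts IFI44 passed the test (adjusted p = 0.00333, edgeR) and MX1 did not (0.0806).

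Of the TRIM ligases, TRIM5, which recognises retroviral capsids, had 115, 112 and 117 normalized counts untreated and 252, 272 and 212 after VPA. The log2 fold change was 1.10 ± 0.11 (SE, adjusted p = 1.12e-08, edgeR). Its span in RefSeq overlaps that of TRIM6, which rose by a log2 fold change of 1.28 and had 1070 counts, and the part of the overlap in the count was not tested. TRIM21, the receptor of antibody-bound virus in the cytosol, rose from 249 ± 23.3 to 321 ± 21.5 (log2 fold change 0.37, adjusted p = 0.000653, edgeR). TRIM25, a ubiquitin ligase that acts on the RIG-I route, rose from 1297 ± 61.7 to 1424 ± 18.4, a log2 change of 0.13 ± 0.048 (SE, adjusted p = 0.0178, edgeR). It did not pass with DESeq2 (0.134), without the filter on low counts (0.0641), without untreated replicate 2 (0.154) or without VPA replicate 3 (0.0661). TRIM22 had 3 counts untreated and 2 after VPA.

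Of the remaining induced genes, IFI6, a small mitochondrial and endoplasmic reticulum protein, had 54.9, 40.8 and 40.9 normalized counts untreated and 130, 106 and 98.6 after VPA. Its log2 fold change was 1.29 ± 0.16 (SE, adjusted p = 3.08e-07, edgeR). IFI44L had 5.18, 14.7 and 14.7 against 76.7, 55.9 and 102. The VPA libraries were spread widely, and all were above all untreated ones, with a log2 change of 2.76 ± 0.31 (SE, adjusted p = 1.07e-06, edgeR). IFI27 had 21.6 ± 4.88 and 29.4 ± 3.58 with groups that overlapped (adjusted p = 0.0966, edgeR), and passed without untreated replicate 2 (0.0438). IFI35, whose product binds the STAT-interacting protein NMI, went the other way, at 19.7, 17.8 and 25.2 against 13.4, 9.63 and 5.74. The log2 fold change was -1.11 ± 0.32 (SE, adjusted p = 0.00421, edgeR), on 90 counts. It was -0.96 without untreated replicate 3, -0.85 without VPA replicate 3 and -0.98 with library totals, each past the adjusted p and short of the fold change threshold.

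Many of these genes lie side by side in families that arose by duplication, and neighbours differed. In the OAS cluster on chromosome 12, OAS3 (112938474 to 112973251) rose to 153 ± 6.25 normalized counts, between OAS1 (from 112906962) and OAS2 (from 112978519), which stayed at 0 or 1 count per library. SAMD9 reached 102 ± 11.5 on chromosome 7 (93099518 to 93117979), next to SAMD9L (from 93130056) with 0 to 3 counts. To set aside the scaling of the libraries, the log2 ratio of counts of neighbouring tested members was taken within each library for 5 pairs, which were chosen after their values were seen. The ratio of IFITM1 to IFITM2 was between -2.32 and -2.22 in the untreated and between -0.84 and -0.61 in the VPA libraries, a difference in means of 1.55. That of IFITM1 to IFITM3 differed by 1.10, HERC6 to HERC5 by 0.64, IFNAR2 to IFNAR1 by 0.41 and IFIT1 to IFIT5 by 0.35. In all 5 pairs the groups did not overlap, with p = 0.1 in a two-sided exact permutation test (n = 3 each), the smallest p this design allows, and an adjusted value of 0.1 over the 5 pairs.

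**Figure D4:**
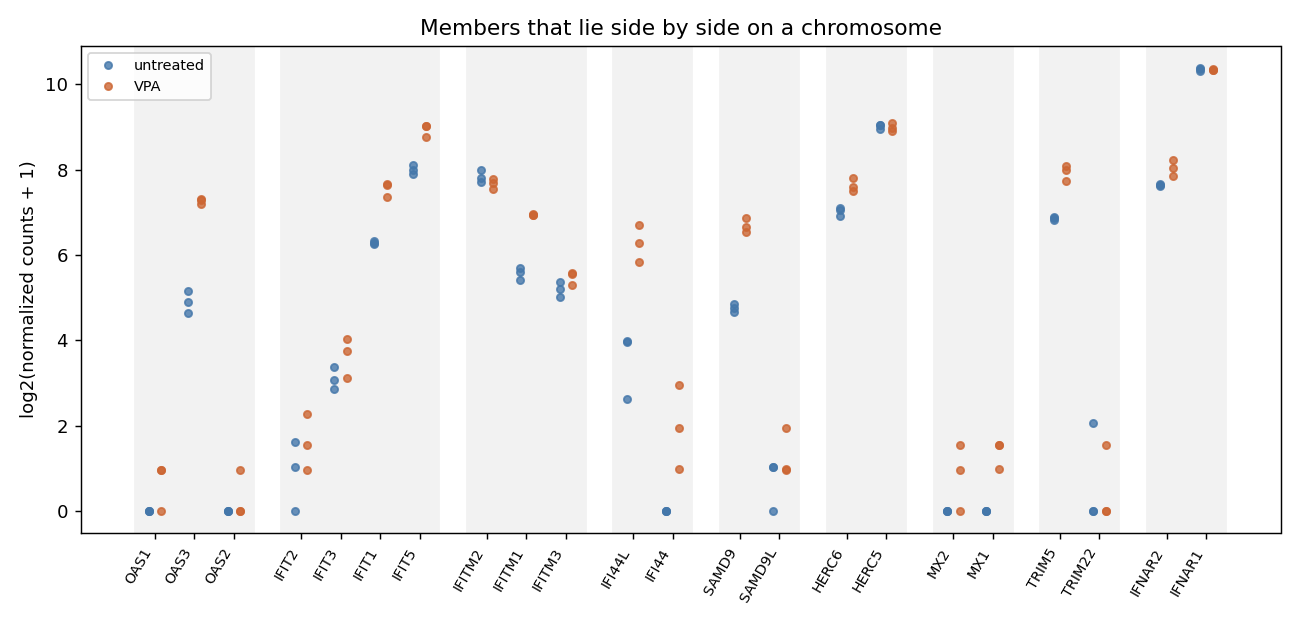
The log2 of normalized counts plus 1 (y axis) in each untreated and VPA library for members that neighbour each other, in chromosome order within each grey block. OAS3 rises between OAS1 and OAS2 at 0 or 1 count, and IFITM1 rises between IFITM2 and IFITM3, whose libraries overlap.

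Compared per length, as normalized CPM per kilobase of merged GENCODE exons, the tested members spanned a wide range of levels in untreated cells. ADAR was at 46.2 ± 1.28 (SD, n = 3), followed by IRF3 at 15.7 ± 0.61 and MAVS at 13.3 ± 0.68, and SAMHD1 at 10.2 ± 0.32. The up-regulated members ranged from IFI6 at 2.60 ± 0.46 and IFITM1 at 1.49 ± 0.14 down to DHX58 at 0.0485 ± 0.022 and OASL at 0.0295 ± 0.018. DHX58, OASL, BST2 and IFI44L passed the filter through the VPA libraries alone, so their low start is tied to the filter and is no result. Members that were not up-regulated also lay in this range, such as IRF7 at 0.48 ± 0.10 and RIGI at 0.26 ± 0.024. The SDs of DHX58 and OASL overlap, as do those of IRF9 at 1.29 ± 0.18 and HERC6 at 1.19 ± 0.077. After VPA, UBE2L6 was at 8.96 ± 0.56, up from 1.07 ± 0.084, and stood near TRIM21 at 8.87 ± 0.59.

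Across all tested genes up-regulation was also tied to low counts. Among genes with a mean under 50 normalized counts 29.4% were up-regulated, and 5 of 11 members in that class were, but 4 of the 5 (DHX58, OASL, BST2 and IFI44L) passed the filter through the VPA libraries alone and the count is no support. Of the 5 members of the class that passed the filter in both groups, IFIH1 was the 1 that was up-regulated. Between 50 and 500 the values were 16.5% and 7 of 18 members, and between 500 and 5000 they were 1.57% and 0 of 8. The median log2 fold change in the class under 50 was 0.45 for the members and 0.39 for all tested genes. The value for the members includes those passed through the VPA libraries alone. In the class from 50 to 500 it was 0.52 for the members and 0.19 for all tested genes. In the class from 500 to 5000 it was 0.07 and -0.10.

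**Figure D5:**
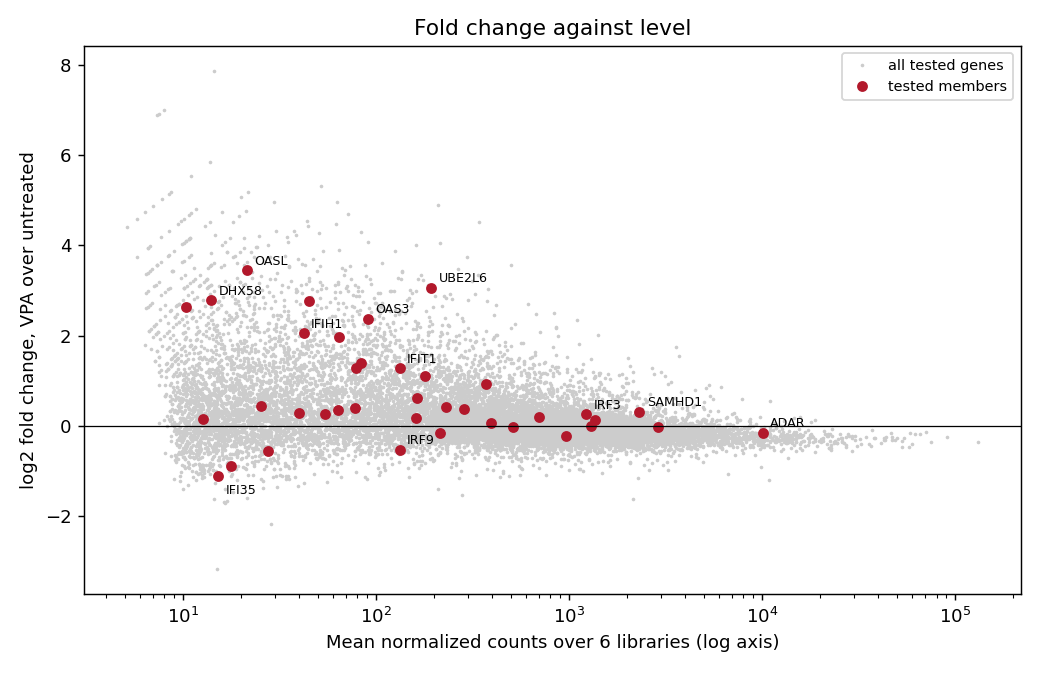
The log2 fold change (y axis, VPA over untreated) against the mean normalized counts of the 6 libraries (x axis, log scale) for all 15298 tested genes in grey and the 38 tested members in red. The members with increases of 1 or more lie under 500 normalized counts, where many other genes rose too, and the abundant members such as ADAR lie near 0.

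A fixed list of 81 other genes of the interferon pathway was read from the same fit, and 57 were tested. Of these 18 were higher, 8 of them up-regulated, 14 were lower with none down-regulated, and 25 did not pass (27 higher and 8 lower with library totals), with a median log2 fold change of 0.01. Its shares of 31.6% higher and 14.0% up-regulated were near those of all tested genes (32.9% and 12.0%), so the counts are no result about the list. The up-regulated genes included IRF8, SHFL, EPSTI1, GBP1, APOBEC3B, SOCS3 and APOBEC3G. SHFL, an inhibitor of frameshifting in viral translation, rose from 15.3 ± 5.62 to 71.0 ± 5.25 normalized counts (log2 fold change 2.20, adjusted p = 9.80e-09, edgeR). GBP1, a GTPase that coats pathogens, rose from 2.09 ± 1.06 to 18.2 ± 4.21 (log2 fold change 3.05, adjusted p = 5.36e-06, edgeR), on 63 counts over the 6 libraries. Among these genes GBP1 and APOBEC3G had fewer than 10 counts in every untreated library. They passed the filter through the VPA libraries, and their calls carry that limit. IRF8 rose from 125 ± 6.62 to 296 ± 29.9 (log2 fold change 1.24, adjusted p = 4.38e-10, edgeR), and SOCS3, a feedback inhibitor of JAK kinases, from 14.6 ± 2.76 to 33.3 ± 5.39 (log2 fold change 1.18, adjusted p = 0.000258, edgeR). NFKB1 was lower, at 1177 ± 48.9 against 843 ± 22.0 (log2 fold change -0.48, adjusted p = 4.51e-08, edgeR), and so was PTPN1, a phosphatase of JAK kinases, at 2444 ± 30.6 against 1902 ± 93.5 (log2 fold change -0.36, adjusted p = 3.90e-07, edgeR).

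The interferon genes on that list were not tested, as none reached the filter. IFNB1, IFNK, IFNG, IFNL1, IFNL2 and IFNL3 were at 0 in all 6 libraries, and IFNE had 6 counts untreated and 2 after VPA. The limits given above for a count of 0 hold here too. Interferon protein and the phosphorylation of STAT2 were not measured.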

How the data were processed

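RNA-seq counts of HEK293T cells were analysed, with 3 untreated and 3 VPA libraries grouped by their labels. Read cleaning by the authors used SOAPnuke, alignment to hg38 used STAR (2.7.10b), and counting per gene used HTSeq (2.0.1, versions from the submitters' processing notes, and the methods give another HTSeq version). The deposited values are these raw counts, without normalization. Reads off any gene were 6.80% to 7.69% of those listed, those that fell on several genes 1.97% to 2.10% and those that aligned at several places 2.81% to 2.92%, and these summary lines were left out. The annotation and strand setting are not given in the sources used here.

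Counts were tested over all genes with edgeR 4.0.16 in R 4.3.3 (TMM, filterByExpr with a count minimum of 10, robust quasi-likelihood fit, prior count 0.125, Benjamini-Hochberg adjustment). Standard errors were taken from the F statistic, as the size of the log2 estimate over the square root of F. The study's thresholds were 0.05 for the adjusted p and, on the log2 scale, 1 for the size of the fold change. The alternatives were DESeq2 1.42.0, other scalings, filters and thresholds, a replicate block, and leaving out single libraries. The members and lists were chosen with earlier results of these data known. Every member could be named, with full statistics for those up- or down-regulated or of the 10 smallest p (values of the others are also given), and from the other pathway genes those up-regulated and the 5 of smallest p. The interferon genes and DDX3X were named as well, for counts at or near 0. Spans and promoters are from RefSeq on GRCh38.p14 and exon lengths from GENCODE 44, matched by symbol. Some genes of the pathway and marker lists are not reported here.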

Additional observations from a re-analysis of the deposited data

Results flagged for a closer look

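Both flagged genes were outside the test because of their low counts. IFI44 had no count in any untreated library and 11 over the 3 VPA libraries (3, 1 and 7), and MX1 had none untreated and 5 after VPA (2, 1 and 2). What singled them out was a count in every VPA library with none in the untreated ones, and a sum over the VPA libraries above 3. No single VPA library of MX1 was above the 3 counts that a count of 0 allows, and only 1 of IFI44 was, at 7. With 3 libraries per condition no test for single libraries that stand apart was made.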

How the results depend on the processing

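The counts of higher members (18 to 28, beside 22) and of up-regulated members (8 to 13, beside 12) stayed within 1.5 times under every alternative. With each library left out they were 20 to 22 and 12 to 13, and the higher pathway genes 16 to 20. With library totals 3 members and 8 pathway genes were lower (6 and 14 in the reported fit), and 27 pathway genes were higher (18 in the reported fit). With DESeq2 14 pathway genes were higher and 12 lower. The lower members were 4 to 6 and the lower pathway genes 13 to 14 with each library left out. Down-regulated members numbered 0 with library totals, with at least 10 counts in every library and with glmTreat, and 0 to 2 with each library left out: 0 without untreated replicate 3 or VPA replicate 3, and 2 without untreated replicate 2 or VPA replicate 1. The median log2 fold change of the tested members was 0.42 with DESeq2, 0.33 with DESeq2 size factors, 0.40 with upper quartile scaling, 0.47 with library totals, 0.42 without a filter and 0.31 with at least 10 counts in every library, and 0.32 to 0.35 with each library left out. Scaling moved the median of all genes alike, and the filters changed which members were tested. IFI35 also fell short of the fold change threshold with a prior count of 2 (-0.98).

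Same-numbered libraries correlated only weakly in their deviations, by 0.14, 0.02 and 0.08, though every library except untreated replicate 2 correlated best with its own number. These values do not settle whether the numbers pair the libraries. With the replicate block 22 members were higher, 6 lower, 12 up-regulated and 1 down-regulated, with a median of 0.34. With it 18 pathway genes were higher and 18 lower (18 and 14 in the reported fit). Among members with a call, the standard error was above 0.3 for BST2, DHX58, OASL, IFI35 and IFI44L, which had 64 to 278 counts over the 6 libraries.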
